A study of Mus musculus with 12 samples.

Results

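The clustered protocadherins are 59 of the 24054 genes in the table, chosen by symbol alone as every row whose name begins with Pcdha, Pcdhb or Pcdhg. They fall into the alpha cluster with 15 rows, the beta cluster with 22 and the gamma cluster with 22. Polyadenylated RNA was sequenced from primary fibroblasts of mouse embryos, cells that make connective tissue, in 12 libraries of 4 genotypes with 3 libraries each. The genotypes were double KO (both Blm and Recql homozygous null), Blm KO, Recql KO and wild type (WT). Blm and Recql encode DNA helicases of the RecQ family, which unwind DNA during replication and repair, and the study asked how loss of either or both changes gene expression. All cells were grown in medium with 10% serum at 3% O2 and 5% CO2. The labels give no embryonic age, strain or allele structure. They do not name the embryo or the culture behind each library either, so each p-value reflects only how far these libraries spread, which may be technical in part.

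Clustered protocadherins are cell surface adhesion proteins of the cadherin family that bind to copies of themselves on neighbouring cells, and they are best known for giving single neurons a molecular identity. In the alpha and gamma clusters each gene has its own promoter and a large first exon, which encodes the outer part and the membrane span, and that exon is spliced to short constant exons that all genes of the cluster use. Beta genes are single-exon genes without constant exons. In neurons most of these promoters are chosen at random, with CTCF and cohesin looping the chosen promoter to a distant enhancer, while DNA methylation keeps the others silent. The C-type genes at the end of the alpha and gamma arrays (Pcdhac1, Pcdhac2, Pcdhgc3, Pcdhgc4 and Pcdhgc5) are used more uniformly across cells.

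The libraries held 47758552 to 59296354 expected counts, and 3 counts, taken as the floor of detection, corresponded to 0.0508 to 0.0614 CPM (counts scaled to a common library size). Levels are CPM scaled by the trimmed mean of M values (TMM). Blm averaged 5.50 ± 1.57 CPM in double KO and 4.13 ± 1.32 CPM in Blm KO, against 15.6 ± 1.14 CPM in Recql KO and 20.7 ± 1.85 CPM in WT (SD, n = 3 each). Recql itself showed no lower level in the libraries that carry its KO label, at 26.3 ± 8.57 CPM in double KO and 25.2 ± 4.16 in Recql KO, against 27.7 ± 1.87 in WT. Counts summed over a gene would miss an allele whose transcript persists, so below Recql KO and double KO name libraries by their label only. On the first principal component, with 47.3% of the variance, the libraries labelled Recql KO stood at 74.1 to 79.7 and all others between -54.4 and -7.02. Summed Y-linked transcripts were 229 to 257 CPM in all 3 WT libraries, but passed 100 CPM in only 1 library of each other genotype, so the sex-linked difference and genotype cannot be fully told apart.

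All 3 clusters lie next to each other on mouse chromosome 18 (build mm10). The alpha genes span 36930285 to 37188897, the beta genes 37264998 to 37521419 and the gamma genes 37661775 to 37841873. In the exon models each alpha gene has 2346 to 3028 bp of its own and 2860 bp shared with other alpha genes, and each gamma gene has 2499 to 2961 bp of its own and 2116 to 2119 bp shared. Beta genes share no exon in these models apart from 455 bp between Pcdhb21 and Pcdhb22, whose RefSeq spans do not overlap. The estimated counts carry this difference, since only 2.16% of the alpha values above 0 and 1.52% of the gamma values were whole numbers (to within 1e-06), against 86.5% of the beta values and 74.3% over the whole table. Reads from the constant exons of alpha and gamma were thus divided among genes by estimate, and the value of a single alpha or gamma gene is less certain than that of a beta gene.

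Of the 59 members, 49 held enough counts to be tested, among 14876 tested genes in all. They were 7 of 15 in alpha, 20 of 22 in beta and all 22 in gamma. The untested alpha rows were Pcdha1, Pcdha2, Pcdha3, Pcdha7, Pcdha8, Pcdha11, Pcdhac1 and Pcdha4-g, a fusion-like row that runs from the alpha into the gamma cluster. None of them exceeded 0.349 CPM in any library. The untested beta genes were Pcdhb1, which was at 0 in all but 1 library, and Pcdhb10, with no library above 0.170 CPM. Pcdha6 passed the filter only through the libraries labelled Recql KO.

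The fibroblasts expressed mainly gamma genes. The gamma cluster made up 90.3 to 95.1% of the members' summed level in a library, beta 2.92 to 4.91% and alpha 1.34 to 5.52%. Within gamma, the C-type gene Pcdhgc3 alone took 41.4 to 51.8% of the cluster's level. Per kilobase of exon, averaged over the 12 libraries, Pcdhgc3 stood at 81.6 CPM per kb, far above the next genes Pcdhgb2 (8.996), Pcdhga7 (7.93) and Pcdhga10 (7.68). The other gamma C-types lay far apart, with Pcdhgc5 at 7.42 CPM per kb and Pcdhgc4 at 0.52. In alpha, Pcdhac2 led with 2.80 CPM per kb, ahead of Pcdha10 with 0.23 CPM per kb, while the second alpha C-type, Pcdhac1, was at 0.0091. The highest beta genes by these exon models were Pcdhb17 at 1.51 CPM per kb and Pcdhb22, the last gene of the array, at 1.10. Several beta models are longer than the gene's RefSeq span, so these values may be too low and the order of beta genes is uncertain. Without division by length, Pcdhb22 averaged 7.24 CPM and Pcdhb17 7.03 CPM. The highest alternate gamma genes exceeded the highest beta and alternate alpha genes per kilobase.

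**Figure D1:**
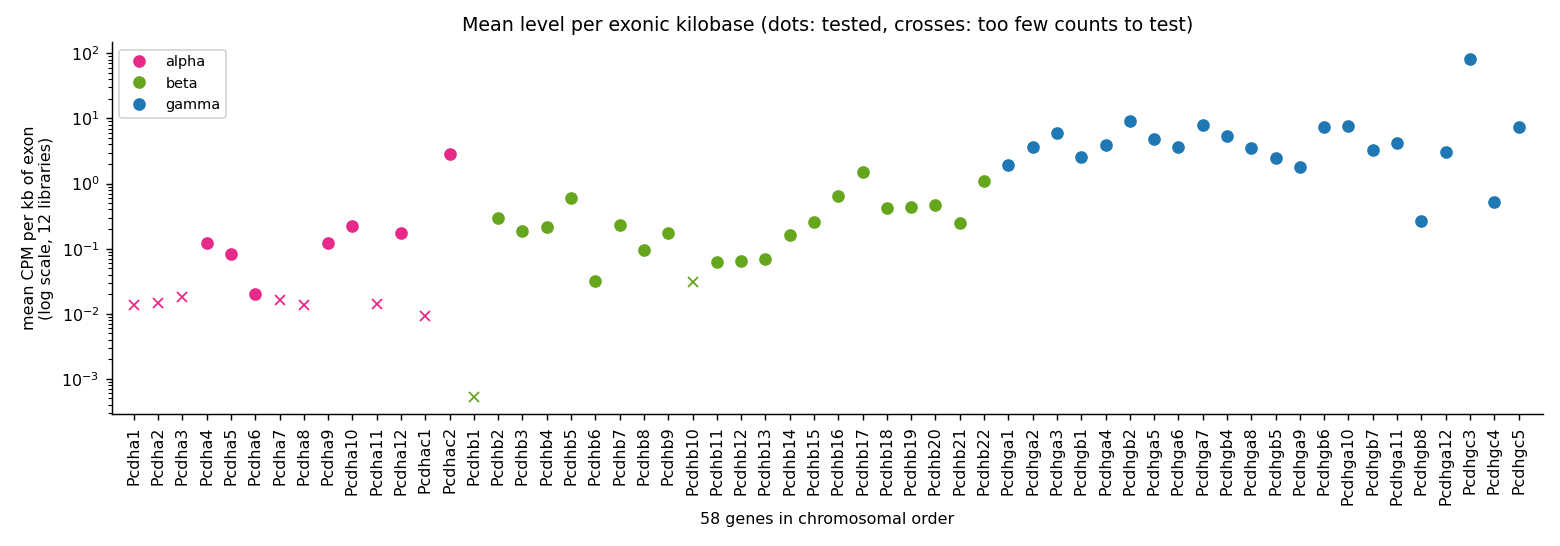
Mean TMM-scaled CPM per kilobase of exon over all 12 libraries (log scale), for 58 members in chromosomal order (the row Pcdha4-g is left out); dots are tested genes and crosses genes with too few counts. Pcdhgc3 stands at 81.6 and Pcdhac2, the highest alpha gene, at 2.80. Exon models of several beta genes are longer than their RefSeq span, so the order of beta genes is uncertain.

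Summed by cluster, the 3 clusters moved differently between genotypes. The alpha sum was 12.7, 11.9 and 14.9 CPM in double KO libraries, 38.0, 17.3 and 32.0 CPM in Blm KO libraries, 13.0, 11.3 and 13.6 CPM in Recql KO libraries and 44.1, 24.5 and 19.0 CPM in WT libraries. The libraries of both genotypes with a Recql label lay below every WT library, by 2.22-fold of the mean in double KO and 2.31-fold in Recql KO, while Blm KO overlapped WT. The beta sum was 34.8, 23.6 and 43.5 CPM in double KO libraries, 42.1, 48.5 and 43.8 CPM in Blm KO libraries, 29.4, 26.5 and 36.5 CPM in Recql KO libraries and 33.8, 24.2 and 32.6 CPM in WT libraries. The gamma sum was 906, 691 and 880 CPM in double KO libraries, 925, 921 and 897 CPM in Blm KO libraries, 736, 734 and 750 CPM in Recql KO libraries and 722, 781 and 764 CPM in WT libraries. For both beta and gamma, all 3 Blm KO libraries stood above all WT libraries, by 1.48-fold and 1.21-fold of the means. In these bulk samples fewer cells of a type and less RNA per cell cannot be told apart, and no test was run on the sums.

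**Figure D2:**
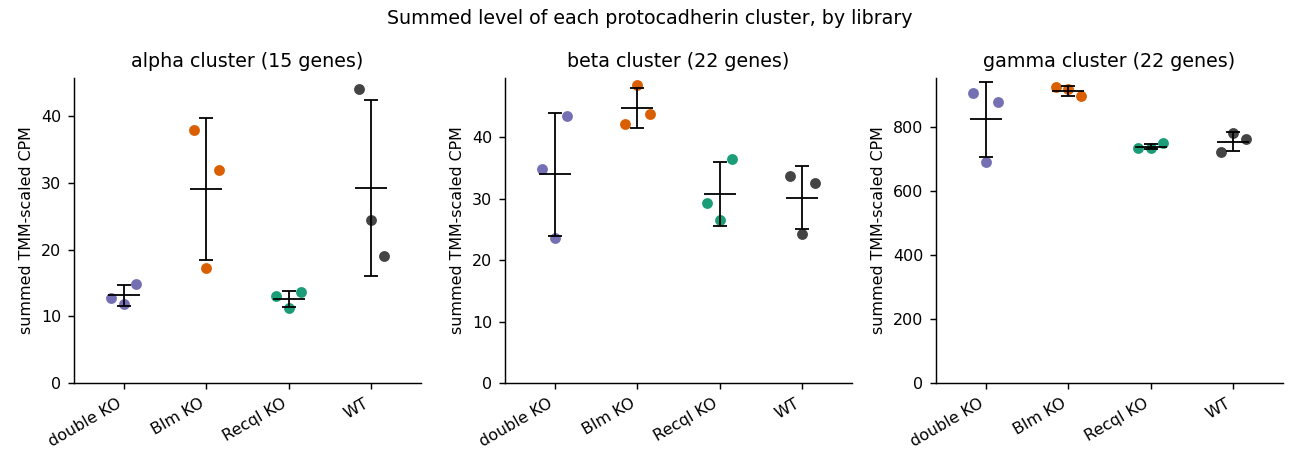
Summed TMM-scaled CPM of the alpha, beta and gamma clusters in each library, by genotype; dots are libraries, bars the mean ± SD of 3. Alpha stands at 11.3 to 14.9 in double KO and Recql KO and at 19.0 to 44.1 in WT, and gamma at 897 to 925 in Blm KO and 722 to 781 in WT.

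Of the 3 comparisons with WT, edgeR called members only in that of Recql KO, and the largest called shifts there lay in the alpha cluster. Pcdhac2 stood at 5.45, 3.66 and 3.99 CPM in the libraries labelled Recql KO, against 40.1, 21.8 and 15.7 CPM in WT, so that the groups did not overlap. It was 5.92-fold lower (log2 fold change -2.56 ± 0.40 SE, edgeR adjusted p = 0.00166). The alternate alpha genes went the other way: their sum was 7.49, 7.65 and 9.65 CPM in Recql KO, against 3.94, 2.65 and 3.32 CPM in WT. Pcdhac2 therefore held 41.9, 32.4 and 29.2% of the alpha level in the libraries labelled Recql KO, against 90.8, 89.0 and 82.5% in WT. All 6 tested alternate alpha genes had positive log2 fold changes and 3 of them rose, although 1 of the 3, Pcdha6, could be tested only because of its level in Recql KO.

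Among those, Pcdha12 was at 1.47, 1.72 and 1.48 CPM in Recql KO, against 0.709, 0.611 and 0.328 CPM in WT, with no overlap. Its log2 fold change was 1.52 ± 0.31 (edgeR adjusted p = 0.00567). Pcdha10 was at 2.18, 1.55 and 2.94 CPM in Recql KO, against 0.706, 0.816 and 0.703 CPM in WT, a log2 fold change of 1.58 ± 0.45 (edgeR adjusted p = 0.0229). Again the groups did not overlap, although these levels are low beside those of the gamma genes. Pcdha6 summed to 53 counts over the 3 Recql KO libraries and 5 over the WT libraries, a CPM ratio of 10.8 (exact 95% interval 4.37 to 34.8, covering counting error only; edgeR adjusted p = 0.0315). Of the alpha genes that did not pass, Pcdha4 and Pcdha9 had log2 fold changes of 1.47 ± 0.68 and 1.13 ± 0.49 (edgeR adjusted p = 0.127 and 0.102).

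Across all 49 tested members, 12 were called in Recql KO against WT, which is 24.5%, while 29.9% of all tested genes were called in that comparison. The number of calls was thus near the background, and 3 members rose and 9 fell, beside 14.2% and 15.6% of all tested genes. Alpha had 3 higher and 1 lower of 7, beta 2 lower of 20 and gamma 6 lower of 22. The alpha counts and the alpha median below include Pcdha6, which could be tested only because of its level in Recql KO. The median log2 fold change was 1.47 in alpha, -0.17 in beta and 0.00014 in gamma, beside -0.01 over all tested genes.

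All 6 gamma genes called in the libraries labelled Recql KO fell. Of these, 2 are adjacent, at places 7 and 8 of the 22 gamma genes in chromosomal order, and 4 lie nearer the C-type end. Pcdhga6 was at 4.75, 8.29 and 8.05 CPM in Recql KO, against 18.7, 14.95 and 19.4 CPM in WT, and was 2.51-fold lower (log2 -1.33 ± 0.25, edgeR adjusted p = 0.00383). Its neighbour in the array, Pcdhga5, was at 11.9, 13.1 and 15.5 CPM in Recql KO, against 24.8, 20.5 and 25.8 CPM in WT (log2 -0.81 ± 0.18, edgeR adjusted p = 0.00772). In neither gene did the groups overlap. Pcdhga11 was at 13.2, 15.4 and 11.8 CPM in Recql KO, against 20.9, 23.1 and 27.6 CPM in WT (log2 -0.83 ± 0.14, edgeR adjusted p = 0.00211). Pcdhga12, Pcdhgb6 and Pcdhgb7 were lowered by less, with log2 fold changes of -0.56, -0.42 and -0.38 (edgeR adjusted p = 0.0111, 0.0249 and 0.0404). These genes encode alternate gamma proteins that share 1 intracellular tail and differ in the outer part that recognises other cells. Pcdhgb6 ranked 5 of the 22 gamma genes per kilobase in WT, while the most abundant of them was not called: Pcdhgc3 was at 317, 354 and 366 CPM in Recql KO, against 320, 384 and 317 CPM in WT (log2 0.02 ± 0.11, edgeR adjusted p = 0.895).

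Beta genes need no dividing of constant-exon reads, and 2 of 20 fell in the libraries labelled Recql KO. Pcdhb19 was at 1.61, 1.52 and 1.95 CPM in Recql KO, against 3.18, 2.40 and 3.28 CPM in WT (log2 -0.80 ± 0.24, edgeR adjusted p = 0.0309). Pcdhb7 was at 0.445, 0.379 and 0.287 CPM in Recql KO, against 0.573, 0.795 and 0.853 CPM in WT (log2 -0.99 ± 0.31, edgeR adjusted p = 0.0324). Neither overlapped between groups. The most abundant beta genes did not pass, with log2 fold changes of 0.51 for Pcdhb17, 0.13 for Pcdhb22 and -0.11 for Pcdhb16 (edgeR adjusted p = 0.168, 0.712 and 0.766).

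**Figure D3:**
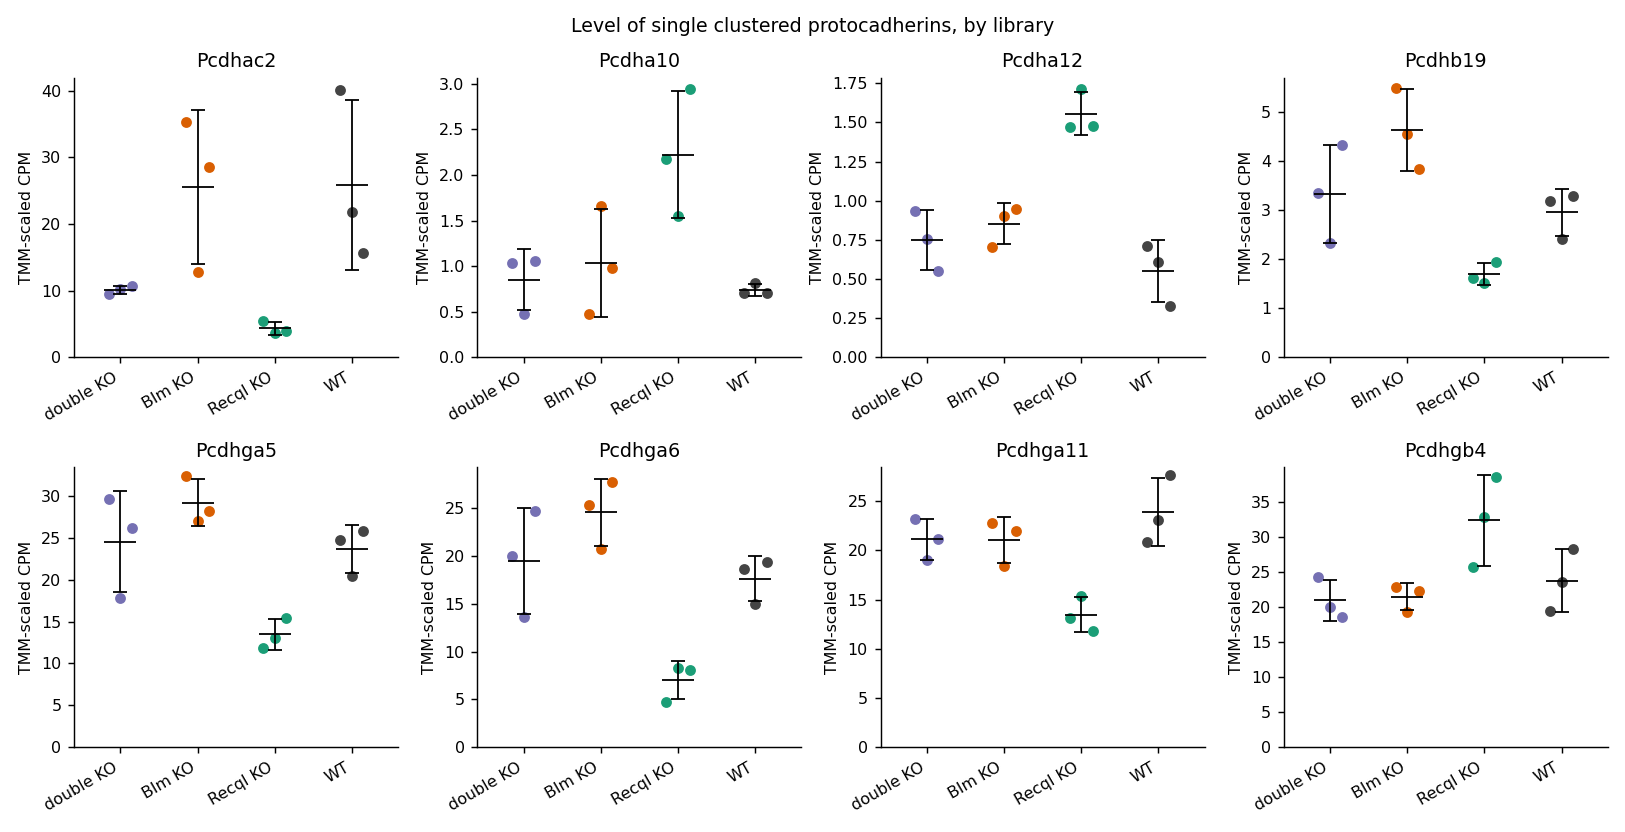
TMM-scaled CPM of 8 members called in at least 1 comparison, in each library by genotype; dots are libraries, bars the mean ± SD of 3. Pcdhac2 stands at 3.66 to 5.45 in Recql KO and 15.7 to 40.1 in WT, and Pcdhga6 at 4.75 to 8.29 in Recql KO and 14.95 to 19.4 in WT.

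The calls differed in how far they rested on single libraries. Of the 12, 5 were made in every fit that left out 1 library of the compared groups: Pcdha12, Pcdhac2, Pcdhga5, Pcdhga6 and Pcdhga11. Those fits called 17.9 to 24.7% of all tested genes, against 29.9% in the main fit. Pcdhga12 lost its call only without Recql KO replicate 1 (log2 -0.47, edgeR adjusted p = 0.0501). Pcdha6 and Pcdhgb7 lost it without any 1 of the 6 libraries, with edgeR adjusted p of 0.0555 to 0.0911 for Pcdha6 and 0.0774 to 0.136 for Pcdhgb7. Pcdha10 lost it without WT replicate 1 or 3 or Recql KO replicate 1 or 3 (log2 1.33 to 1.61), and Pcdhb19 without WT replicate 1 or 3 or Recql KO replicate 1 or 2 (log2 -0.77 to -0.72). Pcdhb7 kept it only without WT replicate 1 (log2 -1.14 to -0.84 in the other fits), and Pcdhgb6 lost it without WT replicate 1 or 2 or Recql KO replicate 1 or 2 (log2 -0.43 to -0.30). In the 6 libraries with high Y-linked transcripts, only 1 of them labelled Recql KO, 2 members passed: Pcdhga5 (log2 -0.999, edgeR adjusted p = 0.0437) and Pcdhga6 (log2 -1.90, edgeR adjusted p = 0.0166). That fit assumes that the single library varies like the WT libraries, and it called 7.39% of all tested genes. In it Pcdhac2 had a log2 fold change of -2.25 (edgeR adjusted p = 0.104).

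Cell type markers also differed in the libraries labelled Recql KO, where 29.9% of all tested genes were called. The 10 fibroblast markers summed to 12561 to 16114 CPM in Recql KO, against 24276 to 25798 in WT, with 1 higher (Dcn) and 3 lower (Col1a1, Col1a2 and Col3a1). The 6 cartilage markers summed to 82.2 to 98.3 CPM in Recql KO, against 594 to 1406 in WT, with 4 of 5 tested lower, and no marker was at 0 throughout. The 12 neuron markers, of interest because neurons are rich in these proteins, summed to 140 to 185 CPM in Recql KO and 120 to 153 in WT, with Tubb3 higher and Syt1 lower of 8 tested. The tested neuron markers had a median log2 fold change of -0.27, beside -0.01 over all tested genes, opposite to the sum. The 11 neural crest, glia and progenitor markers summed to 176 to 196 CPM in Recql KO and 60.8 to 114 in WT, with Nes higher of 9 tested and 1 marker at 0 in all Recql KO libraries. Most of these 9 went the other way than the sum, with a median log2 fold change of -0.41. The 8 endothelial markers summed to 4.19 to 5.55 CPM in Recql KO, against 12.7 to 21.0 in WT, with 3 of 6 tested lower. The 7 epithelial markers summed to 9.56 to 14.7 CPM in Recql KO, against 24.1 to 50.7 in WT, with 3 of 6 tested lower. Of the muscle, blood cell and proliferation markers, 2 of 4, 1 of 5 and 1 of 6 tested were lower and none higher. Their sums were 99.3 to 120, 3.52 to 5.67 and 605 to 787 CPM in Recql KO. In WT they were 62.0 to 121, 4.85 to 7.22 and 887 to 1060 CPM. The muscle sums thus overlapped, while the 4 tested muscle markers had a median log2 fold change of -2.11. The part of these shifts in the protocadherin changes was not tested.

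In Blm KO, most beta genes and several gamma genes stood above WT, but no member passed the test. Of 20 tested beta genes 19 had a positive log2 fold change, with a median of 0.57, beside 0.0050 over all tested genes, and of 22 gamma genes 15 did, with a median of 0.21. WT replicate 2 was the lowest WT library in 18 of 20 beta genes, so these genes moved in part together and are not independent replicates. edgeR called 0 of 49 members, while it called 0.753% of all tested genes. At an unadjusted p under 0.05 there were 10 of 49 members, beside 18.9% of all tested genes. DESeq2 called 2, Pcdhga3 and Pcdhgc5, beside 3.94% of all 24054 genes. All 3 Blm KO libraries exceeded all WT libraries in 15 of 49 members, 9 of them beta and 6 gamma, while 12.7% of all tested genes did so. The reverse held in 2 members, Pcdha5 and Pcdhgb8, beside 12.1% of all tested genes.

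The 3 gamma C-type genes together stood at 468, 517 and 452 CPM in Blm KO, against 348, 413 and 348 CPM in WT, without overlap. Pcdhgc3 was at 425, 462 and 413 CPM in Blm KO, against 320, 384 and 317 CPM in WT, without overlap (log2 0.35 ± 0.11, edgeR adjusted p = 0.137). Pcdhgc5 was at 40.1, 52.9 and 37.2 CPM in Blm KO, against 25.1, 25.8 and 28.7 CPM in WT, also without overlap (log2 0.71 ± 0.23, edgeR adjusted p = 0.146). Pcdhga3, named because its adjusted p was the smallest of the members, was at 36.8, 41.3 and 38.7 CPM in Blm KO, against 29.2, 23.7 and 27.2 CPM in WT (log2 0.55 ± 0.16, edgeR adjusted p = 0.129). The third gamma C-type behaved otherwise, as Pcdhgc4 was at 2.79, 2.30 and 2.18 CPM in Blm KO and 2.75, 2.72 and 2.34 CPM in WT. Among the abundant beta genes, Pcdhb17 was at 7.03, 10.3 and 8.48 CPM in Blm KO, against 6.19, 4.89 and 5.23 CPM in WT (log2 0.66 ± 0.27, edgeR adjusted p = 0.221). Pcdhb22 was at 7.61, 11.9 and 7.67 CPM in Blm KO, against 6.35, 5.17 and 7.58 CPM in WT, so the groups nearly touched (log2 0.51 ± 0.23, edgeR adjusted p = 0.268). Pcdhac2 spread widely in both groups, at 35.2, 12.8 and 28.6 CPM in Blm KO and 40.1, 21.8 and 15.7 CPM in WT, and no direction can be given (log2 -0.02 ± 0.38, edgeR adjusted p = 0.985).

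The neuron markers summed to 289 to 449 CPM in Blm KO, against 120 to 153 in WT, with 1 marker at 0 in all Blm KO libraries. The median log2 fold change of the 8 tested was -0.25, beside 0.0050 over all tested genes, opposite to the sum. Map2, which encodes a microtubule protein of dendrites, was the only called marker of 8 tested and made up most of that sum, at 213, 395 and 348 CPM in Blm KO against 68.4, 35.6 and 51.6 CPM in WT (log2 2.62 ± 0.31, edgeR adjusted p = 0.00432). Sums of other markers also stood apart, although edgeR called none of their genes. The fibroblast markers summed to 29212 to 37148 CPM in Blm KO, against 24276 to 25798 in WT, and the proliferation markers to 560 to 741 CPM in Blm KO, against 887 to 1060 in WT. The endothelial markers summed to 3.63 to 12.1 CPM in Blm KO, against 12.7 to 21.0 in WT, and the epithelial markers to 15.3 to 21.0 CPM in Blm KO, against 24.1 to 50.7 in WT. The part of these markers in the beta and gamma levels was not tested.

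In double KO against WT, edgeR called 0 of 49 members and 0.121% of all tested genes. At an unadjusted p under 0.05 there were 2 members, Pcdhac2 and Pcdhgc3, beside 10.8% of all tested genes. Pcdhac2 was at 9.50, 10.2 and 10.7 CPM in double KO, against 40.1, 21.8 and 15.7 CPM in WT, below every WT library. Its log2 fold change was -1.35 ± 0.39 (edgeR adjusted p = 0.226), and it was the single member that DESeq2 called (adjusted p = 0.0184). DESeq2 called 1.4% of all genes in this comparison. Pcdhgc3 was at 445, 358 and 427 CPM in double KO, against 320, 384 and 317 CPM in WT (log2 0.27 ± 0.11, edgeR adjusted p = 0.41). The medians over the clusters were -0.42 in alpha, 0.22 in beta and -0.02 in gamma, beside 0.0068 over all tested genes.

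Double KO against Blm KO asks what the Recql label adds on a Blm KO background, and edgeR called 0 of 49 members there too, beside 1.96% of all tested genes. At an unadjusted p under 0.05 there were 5 members, beside 23.3% of all tested genes. DESeq2 called 2, Pcdhac2 and Pcdhga3, beside 5.84% of all genes. Of 20 beta genes 19 had a negative log2 fold change, with a median of -0.47, beside 0.0048 over all tested genes. The same Blm KO libraries entered the comparison with WT, where 19 of 20 were positive, so these counts are not independent. Double KO replicate 2 was the lowest of its group in 16 of 20, so the genes are not independent replicates either. Pcdhac2 was at 9.50, 10.2 and 10.7 CPM in double KO, against 35.2, 12.8 and 28.6 CPM in Blm KO (log2 -1.33 ± 0.39, edgeR adjusted p = 0.0922). The call turned on Blm KO replicate 2, the lowest library of its group, since without it the log2 fold change was -1.65 (edgeR adjusted p = 0.0297). Pcdhga3 was at 29.2, 19.5 and 31.0 CPM in double KO, against 36.8, 41.3 and 38.7 CPM in Blm KO (log2 -0.55 ± 0.16, edgeR adjusted p = 0.0907). Both genes stood lower in every double KO library than in any Blm KO library.

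Double KO against Recql KO asks what loss of Blm adds on a background labelled Recql KO. It uses the same Recql KO libraries as the comparison with WT, so the values of both comparisons are not independent. edgeR called 13 of 49 members, or 26.5%, beside 24.7% of all tested genes, so that again the number of calls was near the background. In double KO 8 members were higher and 5 lower, beside 13.2% and 11.6% of all tested genes, and 1 of the 5, Pcdha6, could be tested only because of its level in Recql KO. Among the higher ones, Pcdhac2 was at 9.50, 10.2 and 10.7 CPM in double KO, against 5.45, 3.66 and 3.99 CPM in Recql KO (log2 1.21 ± 0.39, edgeR adjusted p = 0.0453). Pcdhga6 was at 20.0, 13.6 and 24.7 CPM in double KO, against 4.75, 8.29 and 8.05 CPM in Recql KO (log2 1.47 ± 0.25, edgeR adjusted p = 0.00282). Pcdhb7 was at 1.21, 0.947 and 1.06 CPM in double KO, against 0.445, 0.379 and 0.287 CPM in Recql KO (log2 1.52 ± 0.30, edgeR adjusted p = 0.00561). None of these overlapped between groups. The other higher members were Pcdhb19 (log2 0.98), Pcdhga5 (0.87), Pcdhga11 (0.65), Pcdhga12 (0.54) and Pcdhgb6 (0.48), with edgeR adjusted p between 0.00654 and 0.0167.

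The lower members in double KO were mostly alternate alpha genes, whose sum was 3.18, 1.65 and 4.09 CPM in double KO, against 7.49, 7.65 and 9.65 CPM in Recql KO. Pcdha9 was at 0.364, 0.092 and 0.684 CPM in double KO, against 1.00, 1.22 and 1.31 CPM in Recql KO (log2 -1.65 ± 0.50, edgeR adjusted p = 0.035). Pcdha10 and Pcdha12 had log2 fold changes of -1.37 and -1.06 (edgeR adjusted p = 0.0445 and 0.0289). Pcdha6 summed to 3 counts in double KO and 53 in Recql KO, an 18.1-fold lower CPM (exact 95% interval 5.86 to 90.5, covering counting error only; edgeR adjusted p = 0.0238). It was the Recql KO level alone that let this gene pass the filter, so the comparison had to find a difference. The fifth was the gamma gene Pcdhgb4, at 24.3, 20.0 and 18.6 CPM in double KO, against 25.7, 32.9 and 38.7 CPM in Recql KO (log2 -0.63 ± 0.17, edgeR adjusted p = 0.0247).

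**Figure D4:**
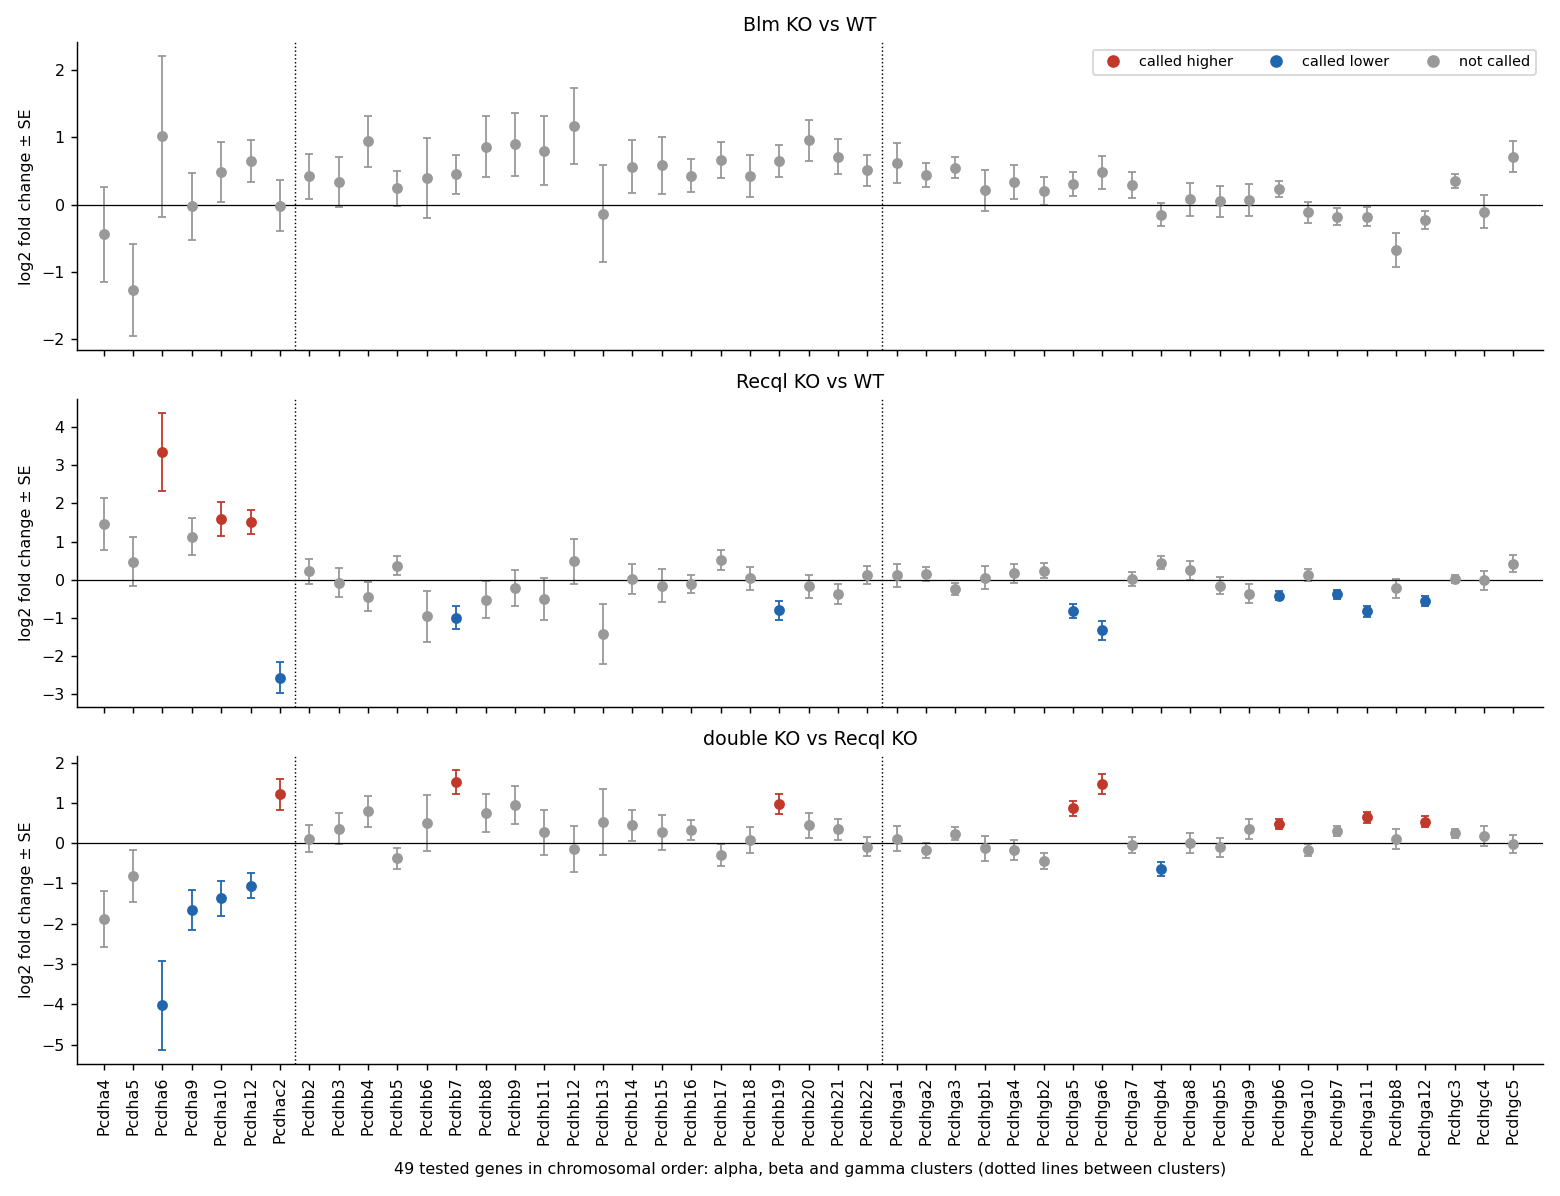
edgeR log2 fold change ± SE of the 49 tested members in chromosomal order, for Blm KO over WT, Recql KO over WT and double KO over Recql KO; colour marks an adjusted p under 0.05. In Blm KO over WT 19 of 20 beta genes lie above 0 and none is called, and all 6 gamma genes called in Recql KO over WT lie below 0.

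In every fit that left out 1 library, 4 of these 13 calls were made (Pcdhb7, Pcdhga5, Pcdhga6 and Pcdhga11). Those fits called 14.3 to 23.4% of all tested genes, against 24.7% in the main fit. Pcdhac2 and Pcdha10 lost theirs without any 1 of the 6 libraries (log2 1.09 to 1.40 and -1.58 to -1.08), and Pcdha12 in all but the fit without double KO replicate 1 (log2 -1.10 to -0.88). Pcdhga12 lost it without Recql KO replicate 1 or double KO replicate 3 (log2 0.44 and 0.47), Pcdhb19 without these or Recql KO replicate 2 (log2 0.74 to 0.94), and Pcdhgb6 without these 3 or double KO replicate 1 (log2 0.36 to 0.48). Pcdhgb4 lost it without replicate 2 or 3 of either group (log2 -0.63 to -0.49), Pcdha9 without any Recql KO library or double KO replicate 1 (log2 -1.76 to -1.57), and Pcdha6 without Recql KO replicate 1 or double KO replicate 1 or 2 (log2 -3.75 to -3.47).

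The interaction, the log2 fold change of double KO over Blm KO less that of Recql KO over WT, tests whether the Recql label went with a different change on each Blm background. It was called for 3 of 49 members, or 6.12%, beside 10.4% of all tested genes. For Pcdhga11 the log2 fold change was 0.0036 in double KO over Blm KO and -0.83 in Recql KO over WT, a difference of 0.83 ± 0.20 (edgeR adjusted p = 0.0259). For Pcdhga12 these were 0.20 and -0.56, a difference of 0.76 ± 0.19 (edgeR adjusted p = 0.0314). For Pcdha12 they were -0.19 and 1.52, a difference of -1.71 ± 0.44 (edgeR adjusted p = 0.0348). The lower level of Pcdhac2 is not shown to differ between backgrounds, with -1.33 in double KO over Blm KO, -2.56 in Recql KO over WT and a difference of 1.23 ± 0.54 (edgeR adjusted p = 0.167). None of the 3 calls was made in every fit that left out 1 library, and none when the Y-linked level was added as a covariate.

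Spread within a genotype was large and partly shared along a cluster. Double KO replicate 2 was the lowest library of its group in 16 of 20 beta and 18 of 22 gamma genes, while it was the lowest in 41.2% of all tested genes. WT replicate 2 was the lowest WT library in 18 of 20 beta genes, beside 32.0% of all tested genes. The median coefficient of variation among tested gamma genes was 19.7% for double KO, 13.7% for Blm KO, 15.1% for Recql KO and 11.1% for WT. Among beta genes it was 35.9%, 17.4%, 22.8% and 26.5% in the same order. Among the 7 tested alpha genes it was largest, at 66.7%, 45.0%, 29.6% and 36.1%.

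Genes that act on protocadherin promoters were read from the same fit. Of 10 tested genes for CTCF, cohesin and its loaders and release factors, 1 fell in the libraries labelled Recql KO. This was the cohesin subunit gene Rad21, at 161, 174 and 178 CPM in Recql KO, against 257, 245 and 237 CPM in WT (log2 -0.53 ± 0.10, edgeR adjusted p = 0.0049). Ctcf was at 96.9, 91.1 and 88.5 CPM in Recql KO and 111, 101 and 96.0 CPM in WT (log2 -0.16 ± 0.09, edgeR adjusted p = 0.208). Of 14 silencing and methylation genes, 2 rose and 6 fell in the libraries labelled Recql KO, beside 14.2% and 15.6% of all tested genes. The fallen ones include both de novo DNA methyltransferase genes, with Dnmt3b at 0.778, 0.551 and 1.17 CPM in Recql KO, against 2.05, 1.75 and 1.91 CPM in WT (log2 -1.20 ± 0.30, edgeR adjusted p = 0.0127). Dnmt3a was at 37.1, 34.0 and 37.4 CPM in Recql KO, against 64.3, 64.1 and 73.8 CPM in WT (log2 -0.90 ± 0.19, edgeR adjusted p = 0.00699). Tet2 and Tet3, whose products start the removal of DNA methylation, fell as well (log2 -0.75 and -0.59, edgeR adjusted p = 0.0136 and 0.00383). So did Trim28, a co-repressor (log2 -0.38), and Setdb1, a histone methyltransferase (-0.25), while Atf7ip, the partner of Setdb1, and Lrif1 rose (0.46 and 0.32). Smchd1, a repressor of protocadherin genes, did not pass (log2 -0.09 ± 0.10, edgeR adjusted p = 0.512).

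In double KO against Recql KO, 6 of the 14 silencing genes were higher and 1 lower, beside 13.2% and 11.6% of all tested genes, among them Dnmt3a (log2 1.10), Dnmt3b (1.44) and Tet3 (0.84), and Rad21 was higher by 0.32 (edgeR adjusted p = 0.048). In double KO against WT, in double KO against Blm KO and in Blm KO against WT, edgeR called none of these 24 genes. The shares of all tested genes called there were also low, at 0.121%, 1.96% and 0.753%. The relation of these genes to the protocadherin levels was not tested.

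**Figure D5:**
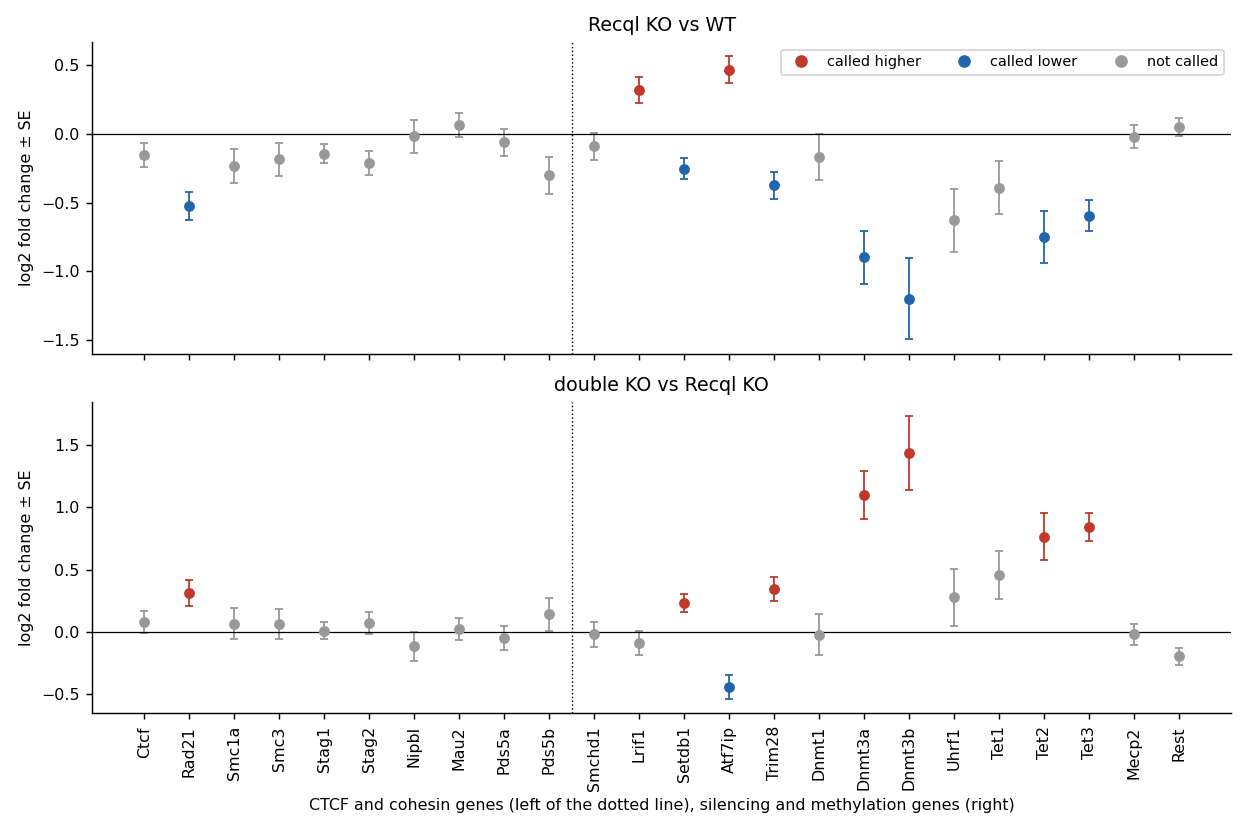
edgeR log2 fold change ± SE of 10 CTCF and cohesin genes and 14 silencing and methylation genes, for Recql KO over WT and double KO over Recql KO; colour marks an adjusted p under 0.05. Dnmt3b and Dnmt3a stand at -1.20 and -0.90 in Recql KO over WT, and at 1.44 and 1.10 in double KO over Recql KO.

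Of 20 genes for proteins that work with the clustered protocadherins, 4 were higher and 3 lower in RNA level in the libraries labelled Recql KO, near the 14.2% and 15.6% of all tested genes. Ptk2, the focal adhesion kinase that binds the constant tails, was higher (log2 0.52 ± 0.08, edgeR adjusted p = 0.0015), as were Abi1 (0.21) and Fyn, another tyrosine kinase (0.88). The lower ones, Wasf1 (-0.69), Abi2 (-0.44) and Wasf2 (-0.20), encode parts of the WAVE complex, which builds branched actin, and Abi1, which was higher, belongs to the same complex. Of 10 tested protocadherins outside the clusters, Pcdh1 and Pcdh7 were higher and Pcdh10 lower. Pcdh10 was at 2.52, 2.99 and 3.48 CPM in Recql KO, against 11.7, 14.1 and 13.0 CPM in WT (log2 -2.11 ± 0.34, edgeR adjusted p = 0.00183). Pcdh1 was at 21.2, 20.7 and 24.7 CPM in Recql KO, against 2.20, 6.59 and 4.59 CPM in WT (log2 2.31 ± 0.43, edgeR adjusted p = 0.00371). Of 15 classical cadherins and catenins, Cdh3 and Cdh8 were lower. Blm KO against WT and double KO against WT had no call in these 3 lists, beside 0.753% and 0.121% of all tested genes.

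Pcdh1 also lies past the gamma cluster, with Diap1, Hdac3 and other genes between them. Of the genes flanking the clusters, about the same share was called in Recql KO against WT as of all tested genes (29.9%). Among 19 tested genes of the 22 that lie between the clusters or within 10 genes on either side, Cd14 (log2 0.86), Diap1 (0.48), Rnf14 (0.35) and Pcdh1 were higher and Tmco6 (-0.60) and Hdac3 (-0.29) lower. No flanking gene was called in Blm KO against WT, where only 0.753% of all tested genes and no member were called, so these calls cannot set members and flanking genes apart.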

How the data were processed

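The values of all 12 libraries come from 1 gene table that the authors deposited, in the form of expected counts estimated by RSEM, often not whole numbers. Per the submitters' processing notes, Bowtie2 2.1.0, RSEM 1.2.15 and genome build mm10 were used. Per the labels' protocols, RNA was polyadenylated and the kit was stranded. The annotation, the strand setting and read filters are not given in the sources used here.

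After rounding, the expected counts were tested over the whole table with edgeR 4.0.16 in R 4.3.3. Its low-count filter by group left 14876 of 24054 genes. After TMM scaling (factors 0.96 to 1.03), a mean for each genotype was fitted over the 12 libraries together, with 8 residual degrees of freedom. Contrasts were tested by quasi-likelihood F test (robust setting), with p-values adjusted by Benjamini-Hochberg, and a call is an adjusted p under 0.05. The steps were checked on simulated counts for Recql KO against WT only, with the changed genes drawn from those above 1 CPM. The check therefore does not cover members below that level. The median level of tested members was 0.664 CPM in alpha and 0.824 CPM in beta. Levels are given as CPM after TMM scaling, and SDs are over libraries. Positions are from RefSeq GRCm38.p6 and exon lengths from GENCODE M21, both of build mm10. No sequence is shown.

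The members and gene lists were chosen with earlier results of these data known. Genes named are all called members, the 4 most abundant of each cluster, the C-types, Blm and Recql, and up to 6 called genes per list and comparison, of which a part is printed. Pcdhga3, Pcdha5 and Pcdhgb8 in Blm KO and other uncalled genes were named after their values were seen. Alternatives were relative log expression (RLE) scaling, no low-count filter, CPM above 1 in 3 libraries, DESeq2 1.42.0, only the groups compared, a replicate block, the Y-linked level as a covariate, only libraries above 100 CPM of Y-linked transcripts, and each library left out in turn.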

Additional observations from a re-analysis of the deposited data

Results flagged for a closer look

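In 3 members the change that goes with the Recql label differed between Blm backgrounds by edgeR's test of the difference itself. Pcdha12, an alternate alpha gene, had a log2 fold change of -0.19 in double KO over Blm KO and 1.52 in Recql KO over WT, a difference of -1.71 ± 0.44 SE (edgeR adjusted p = 0.0348). Pcdhga11 had 0.0036 and -0.83 in the same comparisons, a difference of 0.83 ± 0.20 (edgeR adjusted p = 0.0259). Pcdhga12 had 0.20 and -0.56, a difference of 0.76 ± 0.19 (edgeR adjusted p = 0.0314). All 3 kept their direction in every alternative run. The calls were lost in 9 of 12 fits that left out 1 library for Pcdha12, in 7 for Pcdhga11 and in 9 for Pcdhga12. When the Y-linked level was added as a covariate, the differences were -1.62, 0.81 and 0.75 (edgeR adjusted p = 0.0763, 0.0559 and 0.0639). The share of members called, 6.12%, was below the 10.4% of all tested genes.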

How the results depend on the processing

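RLE scaling, both other low-count filters and a fit on only the groups compared moved no count of called members by more than 1.5 times. With DESeq2 the count was 2 in Blm KO against WT, beside 3.94% of all genes, and 1 in double KO against WT, beside 1.4%. The count was 2 in double KO against Blm KO, beside 5.84%, and 6 for the interaction, beside 10.9%. With only high Y-linked libraries it was 2 in Recql KO against WT, 1 in double KO against Recql KO and 0 for the interaction (these libraries are 1 per KO label, so the spread comes from the 3 WT libraries alone, and a count between 2 KO labels compares single libraries), and after adding the Y-linked level as a covariate 0 for the interaction. Leaving out 1 library gave 6 to 10 calls in Recql KO against WT (6 without Recql KO replicate 1, 7 without replicate 2 or WT replicate 1). It gave 5 to 10 in double KO against Recql KO (5, 6 and 8 without Recql KO replicate 1, 2 and 3, and 8 without double KO replicate 3), 0 to 1 in double KO against Blm KO and 0 to 5 for the interaction (0 without WT replicate 2 or 3, Blm KO replicate 2 or 3 or Recql KO replicate 1 or 3, 1 without double KO replicate 1, and 5 without Blm KO replicate 1). Blm KO and double KO against WT stayed at 0. In the same fits 17.9 to 24.7% of all tested genes were called in Recql KO against WT (main fit 29.9%). The share was 14.3 to 23.4% in double KO against Recql KO (main fit 24.7%). It was 0.0597 to 3.88% in double KO against Blm KO (1.96%) and 3.64 to 12.2% for the interaction (10.4%). Cluster sums moved by less than their SD under RLE scaling. Causes were not tested.

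Pcdhac2 in Blm KO over WT, at -0.02, changed direction to 0.25 with the Y-linked covariate, 0.46 with high Y-linked libraries, and ranged from -0.32 to 0.45 with 1 library left out (0.45 without WT replicate 1, 0.30 without Blm KO replicate 2). Whether replicate numbers pair the libraries is not settled. A correlation of deviations over 0.1 was found in 5 of 18 same-numbered pairs (median 0.042) and in 5 of 36 other pairs (median -0.011). The replicate block gave 0, 11 and 0 calls in Blm KO, Recql KO and double KO against WT, 1 (Pcdhga3) in double KO against Blm KO, 12 in double KO against Recql KO and 3 for the interaction. A further count covered each called member in its own comparison, and Pcdhac2 in every comparison, over the alternatives. In it 129 lost the call, 3 gained one, 4 changed direction and 329 did not change side. Other members not called in the main fit, such as Pcdhga3, are outside this count. Genes near the floor of 3 counts, mostly alpha, were too few in counts to test.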

Other observations

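The gamma cluster holds A-type and B-type alternate genes, which differ in the sequence of their outer parts, and their sums moved unequally. The 12 A-type genes summed to 274, 193 and 274 CPM in double KO libraries, 291, 272 and 292 CPM in Blm KO libraries, 237, 200 and 203 CPM in Recql KO libraries and 243, 231 and 263 CPM in WT libraries. Every Blm KO library thus stood above every WT library. The 7 B-type genes summed to 148, 115 and 129 CPM in double KO libraries, 166, 131 and 153 CPM in Blm KO libraries, 138, 140 and 150 CPM in Recql KO libraries and 131, 138 and 154 CPM in WT libraries, with all genotypes overlapping WT. No test of the difference between the subfamilies was run. Pcdhb20, a beta gene named after its values were seen, was at 2.19, 2.65 and 2.87 CPM in Blm KO, against 1.55, 1.23 and 1.19 CPM in WT (log2 0.95 ± 0.31, edgeR adjusted p = 0.146).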
